A study of Gallus gallus with 6 samples.

Results

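Long non-coding RNAs (lncRNAs) whose position in the genome lay more than 5 kb and at most 50 kb from the nearest Ensembl transcript were examined in the leg muscle of Xinghua chickens. They numbered 592 of the 1995 lncRNA transcripts in the deposited tables (29.7%) and were chosen by position alone, with no expression value in the choice. The leg muscle of female Xinghua chickens, a Chinese breed, with no treatment named in the labels, was sampled in the egg at 11 days of incubation (E11) and 16 days (E16), and from chicks 1 day old (D1, named P1 in the labels), with 2 libraries per stage and 6 in all. Libraries were made from total RNA depleted of ribosomal RNA, so that transcripts without a poly(A) tail were kept. Each table gives 1 value per transcript and stage, pooled over both libraries. The spread between libraries and the number of reads behind a value are therefore unknown, and no difference could be tested. Nothing in the labels or methods says whether a library came from 1 bird or a pool.

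LncRNAs are long transcripts without an apparent protein-coding reading frame. Some act where they are made, on the transcription or chromatin of genes nearby, some act elsewhere in the cell, and for many no function is known. The muscle of the chicken leg forms its fibers in the egg: myoblasts divide, leave the cell cycle and fuse, and the fibers then fill with contractile protein up to hatching. LncRNAs that lie apart from a gene, yet near it, are often compared with that gene, since neighbours can share a stretch of open chromatin.

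Levels are in FPKM, fragments counted per length of transcript and per depth of the library, a scale that allows transcripts of different length to be compared. A difference between stages is given as log2((later + 0.1)/(earlier + 0.1)), called the log2 ratio below, or as the plain ratio of the pooled FPKM values. A transcript entered a count of changes when it reached 1 FPKM at either stage of the pair. "Rose" and "fell" stand for a 2-fold or larger difference at the later stage by that ratio, which is a size and not a test. In a whole muscle, a lower level can come from fewer cells of a type or from less of the RNA per cell, and these cannot be told apart.

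The stages differed in more than muscle. Of the 7 muscle markers 5 were found, and their summed FPKM was 32121 at E16, against 1139 at E11, with 4 of the 5 higher and none lower. In the same comparison the 3 cartilage markers found fell, with a sum of 18.9 at E16 against 55.1 at E11, and both epidermis markers fell, with 2.26 against 75.9. The nerve markers rose, 3 of 3, with a sum of 323 at E16 against 6.32 at E11, as did both fat cell markers, with 776 against 6.17. SLC12A1, a kidney transporter, stood at 0.0837 at E16 against 9.19 at E11. At D1 against E11 the sums were 39913 against 945 for muscle, where 4 markers rose and MYOG fell, 10.6 against 45.7 for cartilage, 190 against 5.25 for nerve, 779 against 5.12 for fat cells and 1.25 against 63.0 for epidermis. SOX10, of the nerve markers, differed by less than 2-fold there, with 4.02 at D1 against 2.95 at E11. Between D1 and E16 these 5 sums differed less: 34023 against 22646, 9.03 against 13.3, 162 against 226, 665 against 544 and 1.07 against 1.59. Within them MYOG fell, with 1.47 at D1 against 10.7 at E16, and no marker rose. MATN1, listed at 0 at D1 against 0.112 at E16, and DSP, with 0.162 against 0.549, were also past 2-fold lower. Both stood under 1 FPKM at both stages, where the ratio is least certain. Red cell HBAA had an FPKM of 1811 at E16 against 842 at E11, and 495 at D1 against 1274 at E16, while HBZ was listed at 0 at every stage. The part of these other cell types in the lncRNA values was not tested.

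The 592 lncRNAs came from 418 loci on the galGal4 genome. A locus held 1 transcript in 319 cases and 2 or more in 99 cases, with at most 10, so that 273 of the 592 shared their locus with another. Transcripts of a shared locus divide the same reads, and their FPKM values are therefore not independent estimates. The loci spanned 0.417 to 249 kb with a median of 6.32 kb, and the distance to the nearest Ensembl transcript had a median of 17.1 kb. The distance was 5 to 10 kb for 155 lncRNAs, 10 to 20 kb for 170 and 20 to 50 kb for 267. Of the 592, 587 lay on chromosomes, counting 1 on the linkage group LGE22C19W28_E50C23, and 5 on unplaced scaffolds. Chromosome 1 held 102, chromosomes 2 and 3 held 75 each, and chromosome Z held 33, which were 47.8% of the 69 lncRNAs on Z. The nearest gene carried a symbol for 476 lncRNAs, had only an Ensembl number for 89 and was a small RNA or RNA family for 27. There were 377 different nearest genes, and for 45 lncRNAs 2 or more genes were equally near.

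Values on either side of the distance limits overlapped. Just inside 5 kb, lnc00023402 lay 5.035 kb from JAKMIP2 with an FPKM of 0.165 at E16 against 1.12 at E11, and lnc00033915 lay 5.041 kb from CLASP2 with 0.869 at E16 and was listed at 0 at E11. Just outside, lnc00062220 lay 5 kb from DAPP1 and had an FPKM of 1.27 at E16 against 0.387 at E11. At the other limit, lnc00058685 lay 49.3 kb from TSSC1 with 1.37 at E16 against 0.172 at E11, and lnc00016143, outside at 50.018 kb from TMC3, had 0.909 at E16 against 1.29 at E11.

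These lncRNAs were scarce. In the table of E16 and E11, 187 of the 592 reached 1 FPKM at E16 (31.6%, exact 95% binomial interval 27.9 to 35.5%) and 157 at E11 (26.5%, 23.0 to 30.3%). Leaving out zeros, their median level was 0.697 FPKM at E16 and 0.644 FPKM at E11, against medians of 6.64 (E16) and 6.39 (E11) for the 17942 Ensembl transcripts, most of which are protein coding. LncRNAs within 5 kb of an Ensembl transcript stood higher, with 0.897 at E16 and 0.745 at E11, and those over 50 kb away lower, with 0.497 at E16 and 0.582 at E11. In the table of D1 and E11 the median of the 592 was 0.364 at D1 against 0.535 at E11, and in the table of D1 and E16 it was 0.309 at D1 against 0.493 at E16. The lncRNAs over 50 kb away had a lower median at D1 as well, 0.242 at D1 against 0.484 at E11 and 0.207 at D1 against 0.350 at E16, and those within 5 kb had 0.603 at D1 against 0.617 at E11 and 0.515 at D1 against 0.631 at E16. The Ensembl transcripts had 5.47 at D1 against 5.31 at E11 and 4.66 at D1 against 4.68 at E16. When E16 was set against E11, 8 of the 592 reached 10 FPKM at E16, and 5 did at E11. The level did not follow the distance within the range: across the 592 lncRNAs, Spearman's rho between distance and the higher FPKM of the 2 stages was -0.0059 in the table of E16 and E11, -0.0019 for D1 and E11 and -0.085 for D1 and E16. These are descriptions across transcripts, which share libraries and in part loci.

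The most abundant member at E16 and D1 was lnc00042943 on chromosome 20 (5869977 to 5871331), 12.04 kb from OCSTAMP, a membrane protein of osteoclast fusion. It had 62.8 FPKM at E16 against 18.5 at E11, and 41.6 at D1 against 15.3 at E11, while OCSTAMP itself stood at 0.0968 FPKM at E16 against 0.408 at E11. Here the lncRNA was far above its neighbour. The highest at E11 was lnc00068399 on chromosome 5 (12587963 to 12589002), 8.34 kb from the transporter gene SLC22A18, with 22.6 at E16 against 32.2 at E11 and 10.2 at D1 against 26.7 at E11. It was high at every stage and its ratio at D1 over E11 made it one of those that fell (log2 ratio -1.38). lnc00057929 (chromosome 3, 64309664 to 64311166), 48.0 kb from the histone deacetylase gene HDAC2, had 19.2 at E16 against 22.7 at E11 and then 3.86 at D1 against 13.6 at E16. lnc00037892 (chromosome 2, 14680868 to 14697574), 23.4 kb from SVIL, which codes for the actin-bundling protein supervillin, had 19.5 at E16 against 6.76 at E11 and 16.3 at D1 against 13.7 at E16. lnc00092065, on a scaffold 5.86 kb from the homeobox gene HOXC11, had 8.81 at E16 against 14.7 at E11, and 13.6 at D1 against 6.23 at E16, so that it was lowest at E16. At E16, 44 of the 187 members that reached 1 FPKM stood above their nearest gene, and at E11 this held for 32 of 157.

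**Figure D1:**
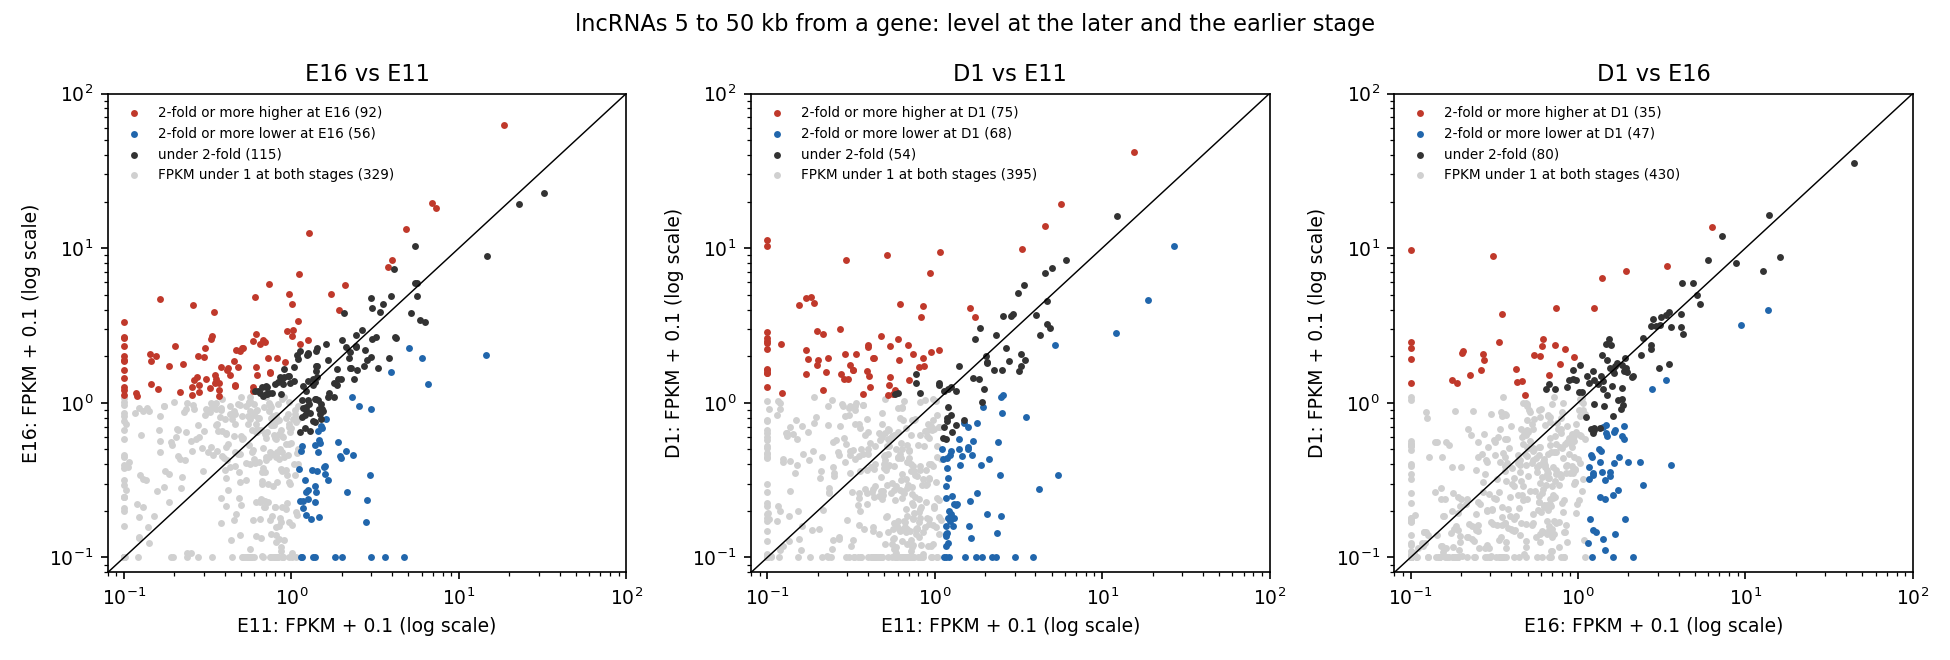
FPKM + 0.1 of the 592 lncRNAs at the later stage (vertical, log scale) against the earlier stage (horizontal, log scale) in each of the 3 tables, 1 point per lncRNA, with the diagonal marking equal levels. Points past 2-fold are red where higher and blue where lower at the later stage; 92 were higher and 56 lower at E16 than at E11, and most points lie below an FPKM of 1 at both stages.

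From mid to late incubation, compared as E16 vs. E11, more of these lncRNAs rose than fell. Of the 592, 263 passed the floor of 1 FPKM; 92 of them rose and 56 fell, together 56.3%, where 27.9% of all 13483 transcripts past the floor did so (15.1% rose and 12.8% fell). A 4-fold difference was reached by 54 that were higher, where 6.19% of all transcripts were, and 35 that were lower, where 5.47% were. The median log2 ratio was 0.35 (95% interval of the median 0.03 to 0.69), against 0.0046 over all transcripts. That interval counts transcripts of a shared locus as independent, which they are not. With 1 transcript per locus, the most abundant one, the median was 0.19 over 223 transcripts. With a floor of 0.5 FPKM it was 0.06, and 140 rose and 125 fell, and with no floor it was 0.08. Among lncRNAs within 5 kb of a gene 51.0% were past 2-fold, among those over 50 kb away 72.2%, and among Ensembl transcripts 25.7%. More rose than fell in both of these other lncRNA classes too. Within 5 kb 165 rose and 92 fell (median log2 ratio 0.37), and over 50 kb away 61 rose and 43 fell (median 0.53). In this comparison the share of the lncRNAs 5 to 50 kb from a gene differed little with the level at the higher stage. It was 55.6% of 162 at an FPKM of 1 to 2, 58.4% of 77 at 2 to 5 and 54.2% of 24 at 5 or more. That of Ensembl transcripts was 39.1%, 31.2% and 22.9% in these ranges. In D1 vs. E16 the same lncRNAs had 54.3% of 105, 44.7% of 38 and 42.1% of 19, with 39 of the 47 falls in the lowest range. Since passing the floor at 1 stage favours transcripts that differ, the counts describe size only.

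Among members above 0.01 FPKM at both stages, the largest ratio at E16 over E11 belonged to lnc00100348 (chromosome Z, 60054841 to 60095636), 45.8 kb from MEF2C, which codes for a transcription factor of muscle differentiation. It had an FPKM of 4.62 at E16 against 0.0651 at E11, a 70.9-fold difference, while MEF2C had 115 at E16 against 57.3 at E11. lnc00032468 (chromosome 2, 3365168 to 3377720), 42.4 kb from the slow and cardiac myosin light chain gene MYL3, had 1.05 at E16 against 0.0180 at E11 (58.5-fold), and MYL3 had 1334 at E16 against 80.0 at E11. lnc00096797, 8.58 kb from the carbonic anhydrase gene CA9 on chromosome Z, had 1.01 at E16 against 0.0196 at E11 (51.5-fold), with CA9 at 30.6 against 7.69. lnc00080475, 32.8 kb from HDAC4, the gene of a deacetylase that represses MEF2 factors, had 1.98 at E16 against 0.0436 at E11 (45.5-fold), and HDAC4 differed little, with 19.2 at E16 against 19.9 at E11. lnc00050833, 23.1 kb from the F-box gene FBXO11, had 1.78 at E16 against 0.0444 at E11. Several others were present at E16 and listed at 0 at E11, for which no ratio is given: lnc00000577 near the phosphatase gene PTPN12 had an FPKM of 3.21 at E16, and lnc00007992 near chSAP18 had 2.58.

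Of the members past the floor, 8 were listed at 0 at E16, and the 2 of these with the highest FPKM at E11 are given first. lnc00029699 (chromosome 18, 3612078 to 3613527), 20.3 kb from the urotensin receptor gene UTS2R, was listed at 0 at E16 and had 4.57 at E11. lnc00076681, 9.86 kb from CCDC6, was listed at 0 at E16 and had 3.50 at E11. Among those measured at both stages, lnc00023262 and lnc00023264, which share 1 locus 16.2 kb from H2AFY, the gene of the histone variant macroH2A1, had 0.0687 and 0.137 at E16, against 2.69 and 2.74 at E11 (39.1-fold and 20.0-fold lower). lnc00041936 near OSR2, a transcription factor gene of limb and palate, had 0.0817 at E16 against 1.35 at E11, and lnc00021735 near WNT5A, a secreted signal of limb outgrowth, had 0.0768 at E16 against 1.21 at E11 (16.5-fold and 15.8-fold lower). In these last 2 cases the gene fell as well, OSR2 with 5.12 at E16 against 13.8 at E11 and WNT5A with 6.84 against 27.9.

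Between D1 and E11, the widest span, 197 members passed the floor, 75 rose and 68 fell, together 72.6%, where 43.2% of all 13040 transcripts did so (22.1% rose and 21.1% fell). The balance of the directions depended on the floor: with a floor of 0.5 FPKM 114 rose and 178 fell. The median log2 ratio was -0.0058 (95% interval -0.59 to 0.57), against 0.03 over all transcripts, and with the floor of 0.5 it was -0.62. A 4-fold difference was reached by 52 that were higher, where 10.4% of all transcripts were, and 44 that were lower, where 10.2% were. Of lncRNAs within 5 kb of a gene 62.8% were past 2-fold, of those over 50 kb away 74.0% and of Ensembl transcripts 41.7%.

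Several members were at or near 0 at E11 and highest at D1. lnc00023378 (chromosome 13, 16935567 to 16937680), 13.2 kb from the microRNA gene gga-mir-6588, had an FPKM of 10.3 at D1 and was listed at 0 at E11, and in the third table it had 8.78 at D1 against 0.209 at E16. The table lists gga-mir-6588 itself at 0 throughout. lnc00100282 (chromosome Z, 55540630 to 55557342), 9.44 kb from KLF4, a transcription factor gene that answers to stress and differentiation signals, had 11.3 at D1 and was listed at 0 at E11, and likewise had 9.59 at D1 and was listed at 0 at E16. KLF4 had 17.8 at D1 against 6.13 at E11. The 3 transcripts of 1 locus 29.2 kb from PTN, the gene of the secreted growth factor pleiotrophin, had 8.27, 4.70 and 2.31 at D1 (lnc00002354, lnc00002355 and lnc00002356), against 0.194, 0.0828 and 0.0208 at E11. These were 42.5-fold, 56.7-fold and 111-fold higher, and all 3 ratios rest on values below 0.2 FPKM at E11. lnc00023727, 10.4 kb from the adrenergic receptor gene ADRA1B, had 4.67 at D1 against 0.0701 at E11 (66.6-fold), and ADRA1B had 7.28 against 1.41. lnc00077992, 29.3 kb from the sulfotransferase gene CHST15, had 4.29 at D1 against 0.0914 at E11, where CHST15 had 14.8 against 18.0. lnc00060568, in a locus of 3 transcripts 16.6 kb from an Ensembl transcript listed at 0, had 2.92 at D1 against 0.171 at E11 (17.1-fold).

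Among the members lower at D1 than at E11, lnc00034203, 25.1 kb from GLI3, a transcription factor gene of hedgehog signalling and digit number, had 0.0190 at D1 against 1.07 at E11 (56.6-fold lower), and GLI3 had 3.88 against 17.3. lnc00023264 near H2AFY had 0.0446 at D1 against 2.27 at E11 (50.9-fold lower). lnc00061612, 17.6 kb from the adhesion receptor gene ADGRL3, had 0.0345 at D1 against 1.56 at E11 (45.1-fold lower), with ADGRL3 at 8.79 against 42.4. lnc00016167 and lnc00016160, 15.3 and 24.3 kb from the transmembrane channel-like gene TMC3, had 0.0246 and 0.0370 at D1 against 1.10 and 1.07 at E11, and TMC3 had 0.0273 at D1 against 1.39 at E11. lnc00015174, beside an Ensembl transcript without a symbol on chromosome 10, was listed at 0 at D1 and had 2.10 at E11.

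Between D1 and E16, which spans hatching, fewer members passed the floor, and E16 values stood at 0.705 of those in the comparison with E11 (median). Of the 162 past the floor 35 rose and 47 fell, together 50.6%, where 23% of all 12125 transcripts did so (11.6% rose and 11.4% fell). The median log2 ratio was -0.17 (95% interval -0.41 to 0.10), against 0.05 over all transcripts. For lncRNAs within 5 kb of a gene it was -0.25 and for those over 50 kb away -0.42. The median of the members was -0.55 with a floor of 0.5 FPKM, where the number that fell was 122. A 4-fold difference was reached by 19 that were higher, where 3.15% of all transcripts were, and 23 that were lower, where 3.75% were. Of lncRNAs within 5 kb of a gene 43.0% were past 2-fold, of those over 50 kb away 56.1% and of Ensembl transcripts 21.6%. Among members above 0.01 FPKM at both stages, the rises were led by lnc00023378 (42.0-fold), followed by lnc00036962 near DPY19L4, with 2.05 at D1 against 0.105 at E16 (19.5-fold), lnc00067066, with 1.99 against 0.104 (19.1-fold), lnc00005553 near the ribosomal protein gene RPL8, with 1.31 against 0.0773 (17.0-fold), and lnc00077992 near CHST15, with 3.66 against 0.251 (14.6-fold). The falls were led by lnc00065902, 28.3 kb from the atypical cadherin gene FAT4, with 0.0115 at D1 against 1.35 at E16 (118-fold lower), and by lnc00006315, 41.6 kb from the adhesion gene CD99, with 0.0239 at D1 against 1.04 at E16 (43.6-fold lower). lnc00007749 had 0.0311 at D1 against 1.31 at E16 and lnc00072997, near FOS, 0.0424 against 1.56. lnc00058247, near the sperm acrosome gene SPACA1, was listed at 0 at D1 and had 1.52 at E16. The lower values of these ratios lie far under the floor, and their own error is not known.

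**Figure D2:**
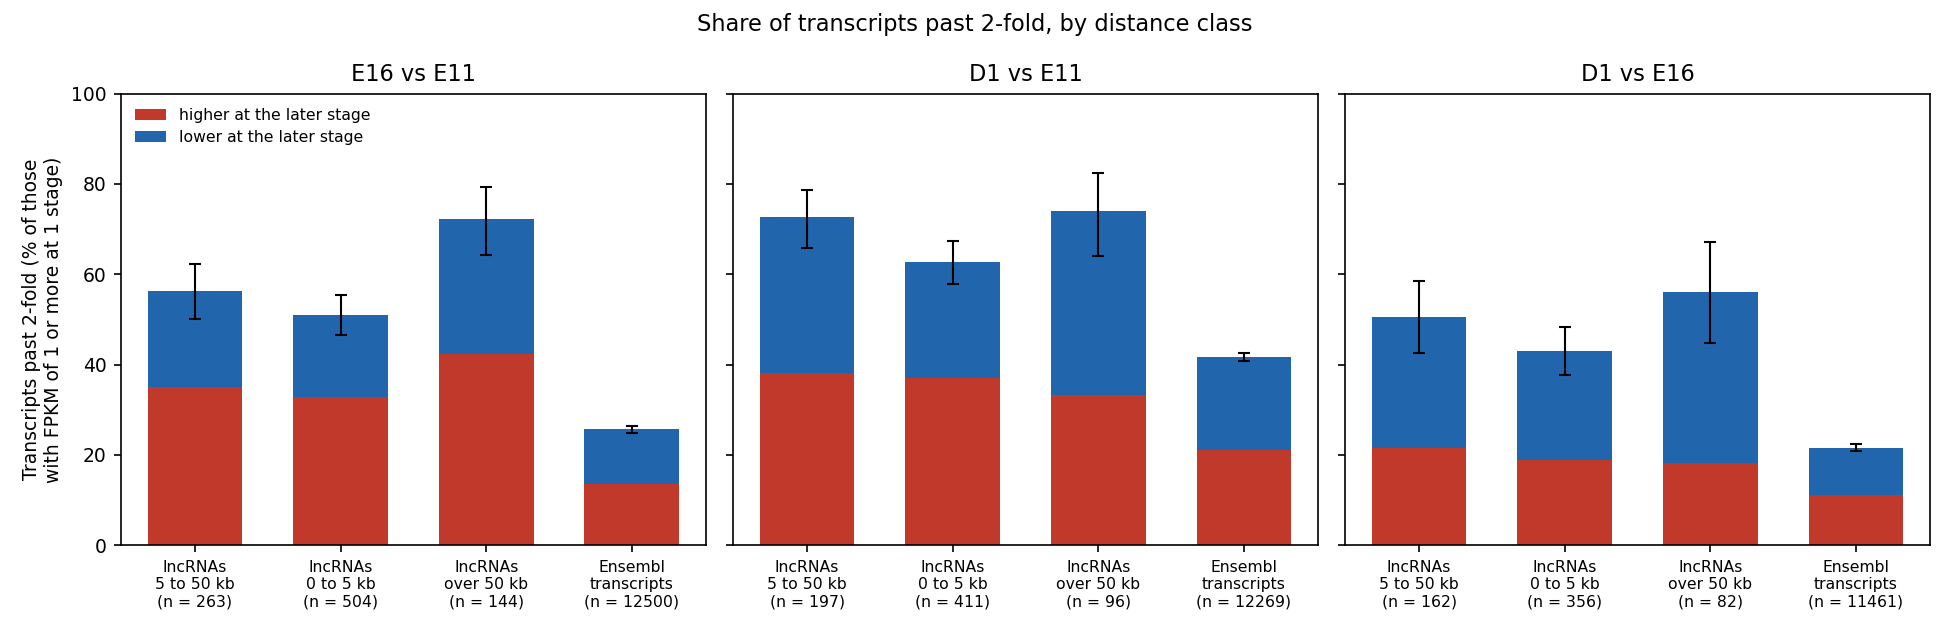
Share of transcripts past 2-fold among those that reached 1 FPKM at either stage, stacked by direction (red higher, blue lower at the later stage), for lncRNAs 5 to 50 kb from a gene, the other lncRNAs and Ensembl transcripts; bars start at 0 and black lines are exact 95% binomial intervals of the summed share over transcripts, not over libraries. The lncRNAs 5 to 50 kb from a gene stand at 56.3%, 72.6% and 50.6%, and Ensembl transcripts at 25.7%, 41.7% and 21.6%. The lncRNAs within 5 kb stand at 51.0%, 62.8% and 43.0%, and those over 50 kb away at 72.2%, 74.0% and 56.1%.

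Each lncRNA was then set beside its nearest gene, taken as the most abundant transcript of that gene at its locus. Abundance also picked the gene for the 45 lncRNAs with 2 or more genes equally near, so level entered the choice of these pairs. Between E16 and E11 both passed the floor in 228 pairs, and in 58 of these both were past 2-fold (25.4%), where 7.22% of 3575 pairs of neighbouring Ensembl genes at the same distance were. Of the 58 pairs 51 moved in the same direction, 33 up and 18 down, which is 87.9% (exact 95% binomial interval 76.7 to 95%), and 7 moved in opposite directions. For the Ensembl neighbours the share in the same direction was 69.4% (63.4 to 74.9%). Between D1 and E11, both were past 2-fold in 69 of 164 pairs (42.1%, against 17.8% of Ensembl neighbours), 29 up together, 32 down together and 8 opposite, so that 88.4% (78.4 to 94.9%) moved the same way, against 59.5% (55.6 to 63.4%). Between D1 and E16 there were 17 of 132 pairs (12.9%, against 5.37%), of which 5 rose together, 9 fell together and 3 were opposite, so that 82.4% (56.6 to 96.2%) moved the same way, against 65.3% (57.5 to 72.5%), and these intervals overlap. The share among lncRNAs within 5 kb of a gene was close to that of these lncRNAs in 2 comparisons, with 86.8% for E16 vs. E11 and 85.4% for D1 vs. E16, and was 67.0% for D1 vs. E11. Among lncRNAs over 50 kb away it was 76.7% of 30 pairs, 66.7% of 33 and 60.0% of only 5. Their intervals were wide, 57.7 to 90.1%, 48.2 to 82.0% and 14.7 to 94.7%, and overlap those of the lncRNAs 5 to 50 kb away. Both partners were past 2-fold in 15.5% (E16 vs. E11), 32.3% (D1 vs. E11) and 13.8% (D1 vs. E16) of the pairs of lncRNAs within 5 kb. Over 50 kb away it was 26.8%, 48.5% and 10.4%. A share above that of Ensembl neighbours was thus not particular to the lncRNAs 5 to 50 kb away. In the pairs of lncRNAs 5 to 50 kb away, 130 of 228, 116 of 164 and 64 of 132 lncRNAs were past 2-fold. Of their nearest genes 85, 87 and 29 were. In the Ensembl pairs the second gene was past 2-fold in 902 of 3575, 1480 of 3508 and 666 of 3108. A larger share on either side by itself raises the share of pairs in which both are, and pairs that share a locus or a gene are not independent. With 1 transcript per locus, 44 of 50, 48 of 54 and 11 of 14 pairs moved the same way.

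Over all pairs past the floor, Spearman's rho between the log2 ratio of the lncRNA and that of its nearest gene was 0.50 for E16 and E11 (228 pairs), 0.53 for D1 and E11 (164 pairs) and 0.32 for D1 and E16 (132 pairs), where neighbouring Ensembl genes had 0.12, 0.11 and 0.10. For lncRNAs within 5 kb of a gene it was 0.26, 0.23 and 0.33, and for those over 50 kb away 0.23, 0.13 and 0.05. These are descriptions with no p, since all points share the same libraries. By distance, the pairs at 5 to 10 kb all moved the same way between E16 and E11 (15 of 15) and between D1 and E11 (13 of 13), and in 4 of 7 between D1 and E16. At 20 to 50 kb 24 of 29, 34 of 40 and 8 of 8 pairs did. Of the 203 lncRNAs with a gene within 50 kb on each side, the gene on the far side also tended to the same direction, in 10 of 13 pairs between E16 and E11, 13 of 14 between D1 and E11 and 5 of 6 between D1 and E16, against 13 of 15, 15 of 19 and 6 of 8 for the nearest gene.

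**Figure D3:**
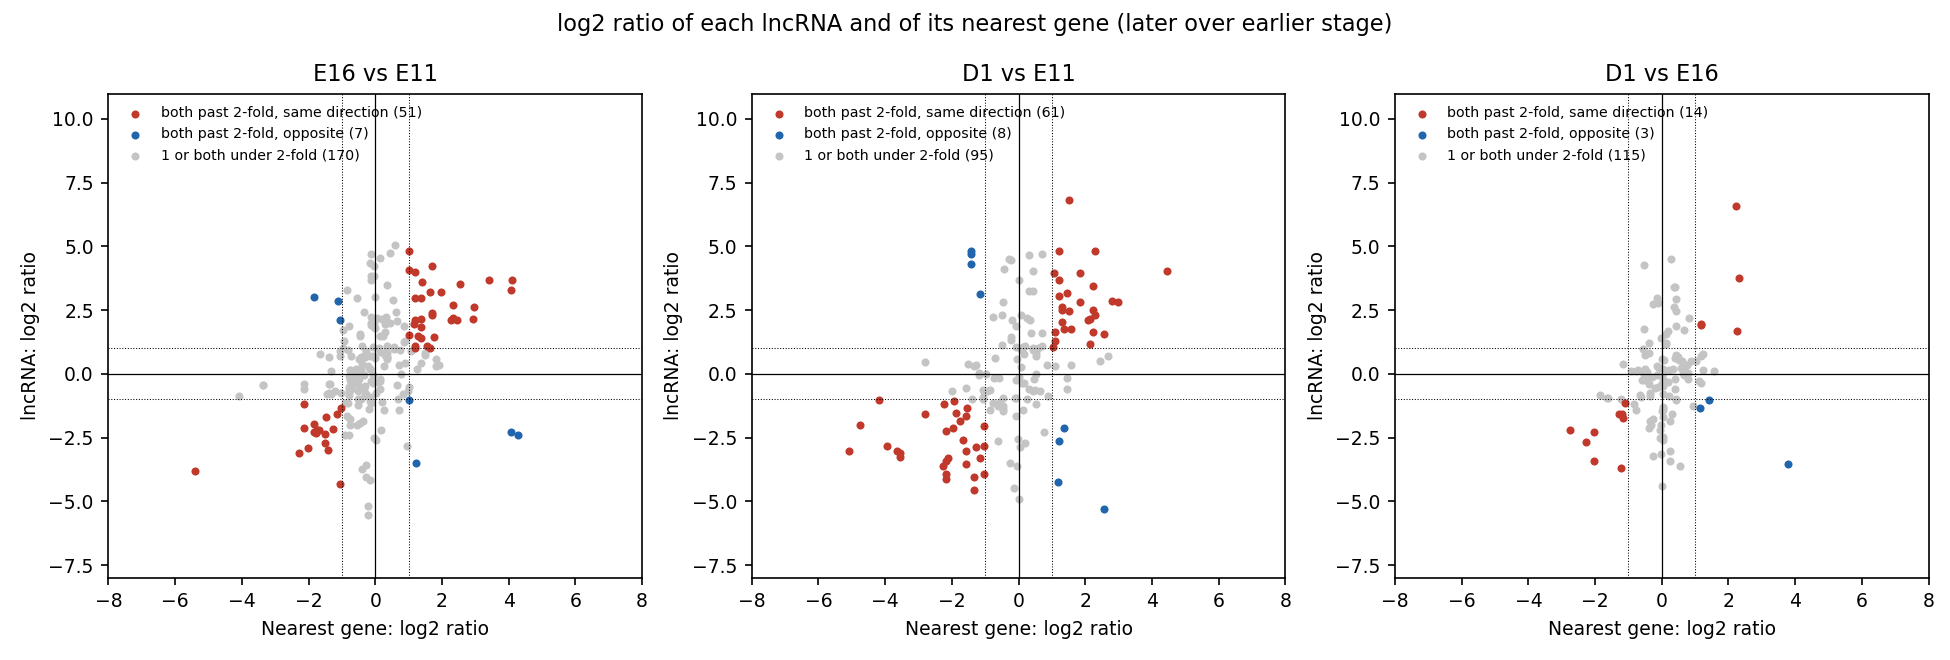
log2 ratio, later over earlier stage, of each lncRNA (vertical) against that of its nearest gene (horizontal) for pairs in which both reached 1 FPKM at either stage; dotted lines mark 2-fold. Red points are both past 2-fold in the same direction (51, 61 and 14 pairs), and blue points in opposite directions (7, 8 and 3 pairs).

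Genes near the lncRNAs were grouped by function in 9 lists, of which counts refer to the lncRNAs and not to the genes. These lists were set with earlier results of the same data known. The lists are small, and their counts stand beside the shares of all transcripts: 15.1% rose and 12.8% fell in E16 vs. E11, 22.1% and 21.1% in D1 vs. E11, and 11.6% and 11.4% in D1 vs. E16. Taken as a whole, whether near a listed gene or not, the lncRNAs 5 to 50 kb from a gene had larger shares than all transcripts. Of those past the floor 35.0% rose and 21.3% fell in E16 vs. E11. In D1 vs. E11 it was 38.1% and 34.5%, and in D1 vs. E16 21.6% and 29.0%. A list above the share of all transcripts is thus not by that unlike the other lncRNAs. Beside myogenic regulators lay 8 members in 4 loci. In E16 vs. E11, 6 passed the floor, 4 rose and 1 fell (median log2 ratio 3.96, against 0.0046 over all transcripts). In D1 vs. E11, 3 of 4 rose and 1 fell (median 2.04), and in D1 vs. E16, none of 5 rose and 2 fell (median -0.87). Those at MEF2C split by locus, though the loci adjoin, with 1 ending at 60095636 and the next starting at 60095712. lnc00100345 and lnc00100348, in the locus 45.8 kb from the gene, had 4.21 and 4.62 at E16 against 0.158 and 0.0651 at E11. In the next locus, 37.5 kb from the gene, lnc00100350 had 0.685 at E16 against 1.51 at E11. With a pseudocount of 1 its log2 ratio was -0.58, under 2-fold. lnc00100351 had 0.732 against 1.10, also under 2-fold. At D1 the same split was seen, with lnc00100348 at 4.22 against 0.0539 at E11 and lnc00100350 at 0.120 against 1.25. The 2 transcripts near HDAC4 had 1.98 and 1.76 at E16, against 0.0436 and a listed 0 at E11, and at D1 they had 0.507 and 0.406, against 1.40 and 1.24 at E16. lnc00041592 near EYA1, a cofactor gene of factors that act before the myogenic factors, had 1.31 at D1 against 0.603 at E11.

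Beside genes of muscle structure lay 5 members, of which 2 passed the floor, both at MYL3 and only between E16 and E11. lnc00032468 rose and lnc00032476 fell, with 0.132 at E16 against 1.02 at E11, 14.3 kb from the gene. The nearer of the pair thus moved against MYL3 and the farther one with it. At D1 lnc00032468 had 0.0622 against 0.746 at E16, while MYL3 had 2858 against 942.

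Beside genes of growth factors and receptors lay 16 members. In E16 vs. E11, 7 passed the floor, 2 rose and 3 fell (median 0.17), where 27.9% of all transcripts were past 2-fold. Between D1 and E11 6 passed, 3 rose and 2 fell (median 2.08, against 0.03 over all transcripts), where 43.2% of all transcripts were past 2-fold, and in D1 vs. E16, 5 passed, 3 rose and 1 fell (median 1.89, against 0.05). The 3 that rose between D1 and E11 were the transcripts at PTN, which moved against it: PTN had 9.95 at D1 against 26.7 at E11, and 8.95 at E16 against 32.2 at E11. Between D1 and E16, PTN differed by less than 2-fold, with 8.49 against 6.31, and lnc00002354 had 7.05 against 1.84. lnc00021735, which fell with WNT5A between E16 and E11, was under the floor between D1 and E16, with 0.343 at D1 against 0.0546 at E16, where WNT5A had 13.2 against 4.83. lnc00006084 near EGFL6, an epidermal growth factor-like matrix protein, had 0.173 at E16 against 1.16 at E11, and EGFL6 had 94.2 against 307. lnc00076153 near NRG3, a ligand of the ERBB4 receptor, had 1.11 at E16 and was listed at 0 at E11, and NRG3 had 4.87 against 1.79. lnc00039316 near the activin subunit gene INHBA had 0.425 at E16 against 1.05 at E11, lnc00042061 near LRP12 had 0.337 at D1 against 1.08 at E11, and lnc00039201 near the BMP-binding protein gene BMPER differed by less than 2-fold in every comparison, with 2.65 at E16 against 2.35 at E11 and 1.73 at D1 against 1.95 at E11.

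Beside genes of the extracellular matrix and cartilage lay 13 members. Of 6 past the floor between E16 and E11, 1 rose and 2 fell (median 0.24), and of 5 between D1 and E11 none rose and 2 fell (median -0.59), where 21.1% of all transcripts fell. In D1 vs. E16 none of 3 was past 2-fold (median -0.74). lnc00082403 (chromosome 8, 10297218 to 10298876), 8.37 kb from the cartilage collagen gene COL11A1, had 0.819 at E16 and, in the other table, 0.763 at D1, against 2.90 and 2.41 at E11, and COL11A1 had 61.9 at E16 against 173 at E11 and 39.4 at D1 against 143 at E11. The cartilage markers fell in both comparisons as given above. The locus near the thrombospondin gene THBS2 was the only one of 28 loci with 2 or more transcripts past the floor in which transcripts rose and fell between E16 and E11: lnc00057043 had 1.41 at E16 against 0.250 at E11, and lnc00057044 had 0.000283 against 1.92. The value 0.000283 is an estimate near 0 beside an overlapping transcript, and the division of reads between them is uncertain. lnc00080122 and lnc00080125 near COL3A1, a collagen gene of connective tissue, had 1.63 and 2.31 at E16 against 1.31 and 1.50 at E11, under 2-fold, while COL3A1 had 2225 at E16 against 633 at E11. lnc00052263 near the basement membrane gene NID1 had 3.76 at E16 against 3.30 at E11, and NID1 had 169 against 71.4.

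Beside developmental transcription factor genes lay 34 members in 22 loci. At E16 against E11, 12 passed the floor, 3 rose and 3 fell (median -0.57), and between D1 and E11 10 passed, 3 rose and 4 fell (median -0.27), where 43.2% of all transcripts were past 2-fold. In D1 vs. E16, 5 passed, 3 rose and none fell (median 1.12), where 11.6% of all transcripts rose. lnc00003323 (chromosome 1, 75124713 to 75142396), 5.55 kb from FOXM1, a factor that drives genes of mitosis, had 18.0 at E16 against 7.24 at E11, and FOXM1 had 15.2 against 29.2. At D1 lnc00003323 had 8.25 against 6.01 at E11, and FOXM1 had 3.41 against 24.2. lnc00018295 near SALL1 had 0.0871 at E16 against 1.13 at E11, with SALL1 at 1.50 against 4.42. lnc00015666 near TCF12, the gene of a partner of the myogenic factors, had 0.292 at E16 against 1.49 at E11 and 0.120 at D1 against 1.23 at E11, and TCF12 had 87.2 at D1 against 275 at E11. lnc00041680 near ZFHX4 had 0.391 at D1 against 1.14 at E11, with ZFHX4 at 13.3 against 39.3. lnc00097440 near NFIB, which codes for a nuclear factor I protein, had 2.67 at D1 against 0.114 at E11, and NFIB differed little, with 57.3 against 56.9. lnc00019223 near ZFHX3 had 1.53 at D1 against 0.223 at E11, with ZFHX3 at 8.49 against 12.1, and lnc00032832 near ZEB1 had 0.121 at D1 against 1.20 at E11, with ZEB1 at 43.6 against 44.5.

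Beside genes of ubiquitin ligases and adaptors lay 14 members. At E16 against E11, 11 passed the floor, 8 rose and 1 fell (median 1.92), where 15.1% and 12.8% of all transcripts did. In D1 vs. E11, 6 passed, 4 rose and none fell (median 1.05), and in D1 vs. E16, 8 passed, 1 rose and 3 fell (median -0.61, against 0.05 over all transcripts). Of the 11, 7 lay in 3 adjoining loci 23.1 to 33.3 kb from FBXO11. Of these 7, lnc00050831 had 2.56 at E16 against 3.10 at E11, under 2-fold, and the other 6 had 1.32 to 2.53 at E16, against values between a listed 0 and 0.577 at E11. FBXO11 had 46.5 at E16 against 50.6 at E11. lnc00057740 (chromosome 3, 59594258 to 59599811), 7.01 kb from the RING finger gene RNF217, had 13.3 at E16 against 4.70 at E11 and 3.08 at D1 against 9.38 at E16, and RNF217 had 23.6 at E16 against 9.69 at E11 and 6.86 at D1 against 16.7 at E16. Both were highest at E16. lnc00065142 near FBXW7, whose product marks cyclin E and MYC for breakdown, was listed at 0 at E16 and had 1.04 at E11, while FBXW7 had 39.7 against 17.1.

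Beside ion channel and transporter genes lay 14 members. For E16 vs. E11, 8 passed the floor, 2 rose and 1 fell (median 0.47). Past 2-fold were 27.9% of all transcripts and 56.3% of the lncRNAs 5 to 50 kb from a gene. In D1 vs. E11, 5 passed, 2 rose and 2 fell (median 0.32), and in D1 vs. E16 none of 5 was past 2-fold (median 0.12). lnc00013296, 5.29 kb from SLC9A2, a sodium and proton exchanger gene, had 1.17 at E16 and 1.54 at D1 and was listed at 0 at E11, and SLC9A2 had 8.09 at E16 against 0.378 at E11. lnc00064309 near the glutamate receptor gene GRIA3 had 0.0424 at D1 against 1.07 at E11, with GRIA3 at 0.164 against 8.79. lnc00000938 near the potassium channel gene KCND2 had 1.45 at E16 against 0.645 at E11, and lnc00020855 near the calcium channel subunit gene CACNA2D3 had 0.276 at E16 against 1.02 at E11. The 2 lists left held few members: of 4 near genes of cell division and DNA repair, lnc00003148 near the cyclin kinase inhibitor gene CDKN1B had 0.604 at E16 against 1.40 at E11, and of 2 near genes of energy metabolism, lnc00002021 near the carrier gene SLC25A17 had 1.80 at E16 against 1.55 at E11.

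Among the pairs outside these lists, those at HAO2, PCSK1, FOS and MAP3K4 entered by the size of the change of both partners, and those at ESRRG, DUSP8, ERBB4, GJD2, PTH1R, OSR1, DSTN and CXCR7 are named here after their values were seen. HAO2, a hydroxyacid oxidase gene, was listed at 0 at E16 with 4.14 at E11, and so was lnc00011316, 23.6 kb away, with 1.29 at E11. lnc00100308 near PCSK1, a prohormone convertase gene, had 0.138 at E16 against 1.15 at E11, where PCSK1 had 20.6 against 0.969. lnc00072997 near FOS had 2.23 at E16 against 0.102 at E11 in step with FOS, at 1.83 against 0.231. At D1 the same lncRNA had 0.0424 against 1.56 at E16 while FOS, an immediate early gene, had 19.1 against 1.29. lnc00052643 near the kinase gene MAP3K4 had 0.565 at D1 against 1.57 at E16, with MAP3K4 at 17.1 against 7.66. Also chosen by size was lnc00009170, with a log2 ratio of 3.69 in E16 vs. E11 and -2.20 in D1 vs. E16. So were lnc00086462 (2.62 in E16 vs. E11) and lnc00036456 (-3.04 in D1 vs. E11). Each moved in the direction of its nearest gene. lnc00005177 (-1.01 in D1 vs. E16) and lnc00029699 near UTS2R (-5.28 in D1 vs. E11) moved against theirs.

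At ESRRG, the gene of a nuclear receptor that drives oxidative metabolism in muscle of mice, the 3 transcripts of 1 locus had 13.9, 2.62 and 1.82 at D1 (lnc00051396, lnc00055957 and lnc00055958), against 4.44, 0.377 and 0.0751 at E11. ESRRG had 49.8 at D1 against 10.5 at E11. lnc00068445 near the phosphatase gene DUSP8 had 9.72 at D1 against 3.22 at E11, with DUSP8 at 26.5 against 4.38. lnc00078410 and lnc00078426, at 30.3 and 10.9 kb from the neuregulin receptor gene ERBB4, had 2.37 and 1.68 at E16 against 0.591 and 0.126 at E11, and ERBB4 had 10.2 against 3.92. At D1 both were lower, with 0.344 and 0.0455 against 1.66 and 1.18 at E16, where ERBB4 had 7.04 against 7.18. At CXCR7, the gene of a chemokine receptor, the 3 transcripts past the floor had 1.50 to 1.97 at D1 against 0.213 to 0.294 at E11, with CXCR7 at 62.3 against 25.1.

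The pairs that fell together included lnc00037615, 7.44 kb from PTH1R, the parathyroid hormone receptor gene of growth cartilage and bone, with 0.242 at E16 against 2.84 at E11, where PTH1R had 5.39 against 26.9. lnc00058946 near OSR1, a transcription factor gene of limb connective tissue, had 0.130 at E16 against 1.08 at E11, with OSR1 at 19.4 against 55.1. At GJD2, the gene of a gap junction protein of neurons, 4 transcripts of 1 locus had between a listed 0 and 0.297 at D1, against 1.66 to 4.11 at E11, and GJD2 had 1.03 against 5.03. lnc00051078 near DSTN, the actin-depolymerizing factor destrin, went the other way from its gene, with 9.31 at D1 against 0.969 at E11 while DSTN had 81.0 against 181.

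**Figure D4:**
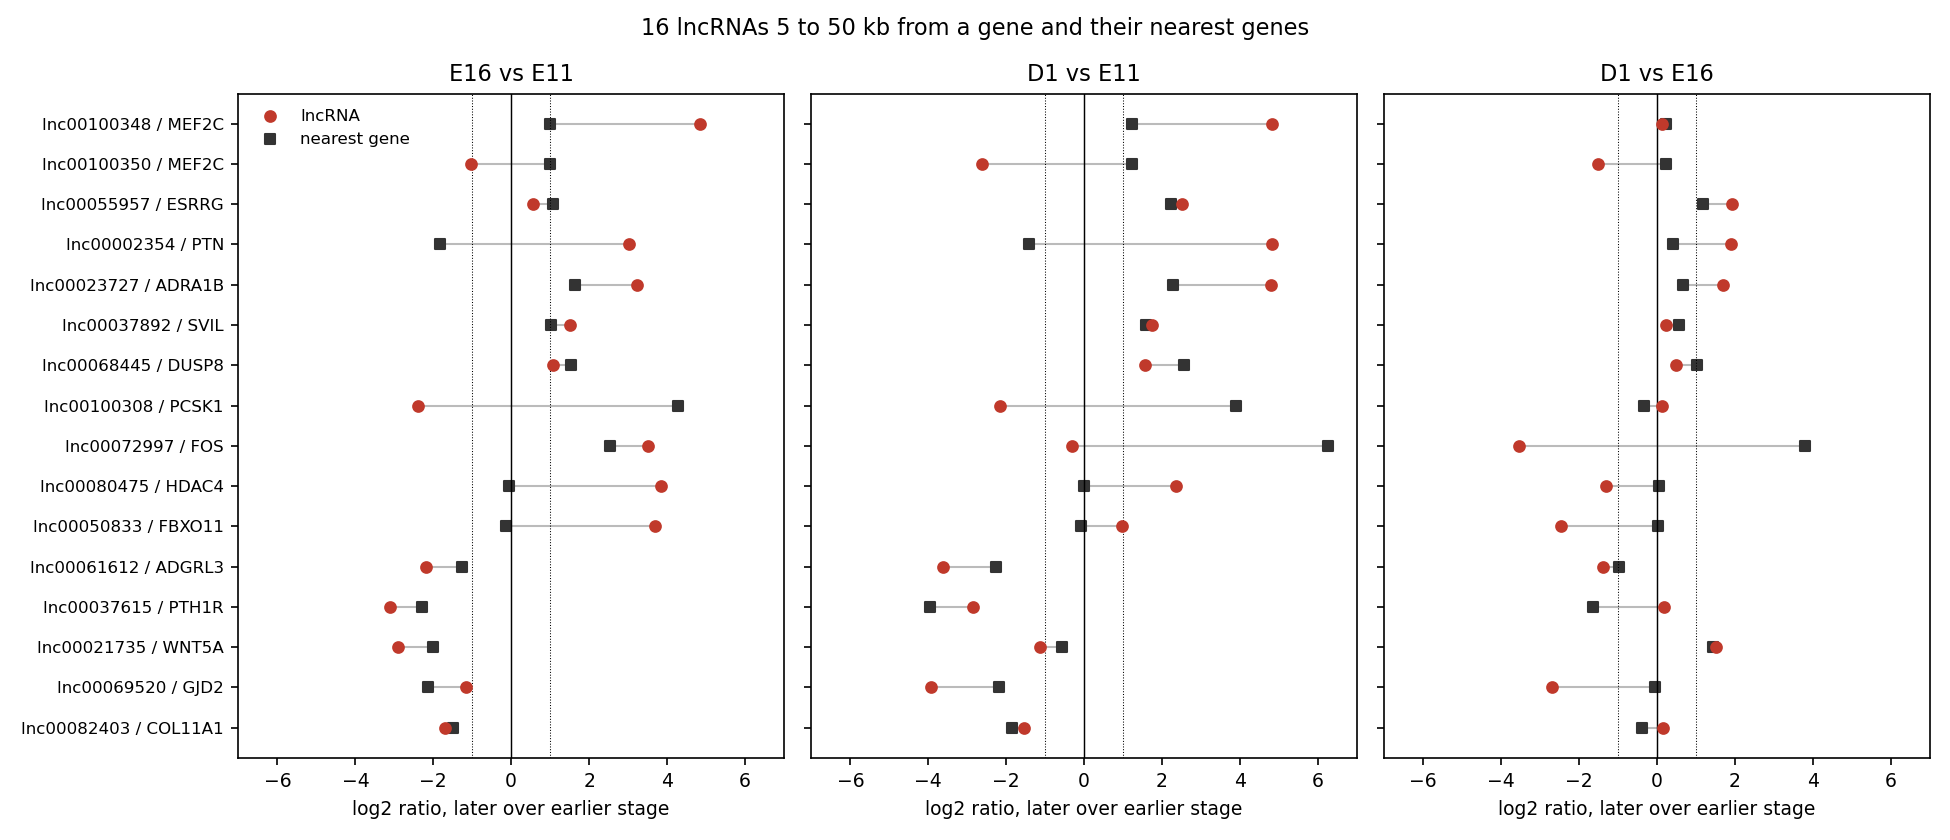
log2 ratio, later over earlier stage, of 16 lncRNAs (red circles) and their nearest genes (dark squares) in the 3 comparisons, chosen with their values known, with dotted lines at 2-fold; values under the floor are drawn as well. The lncRNA and its gene lie on the same side of 0 at SVIL, DUSP8 and ADRA1B in all 3 comparisons, and on opposite sides at PTN and PCSK1 in both comparisons with E11.

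Loci that held 2 or more transcripts past the floor seldom held both directions. Between E16 and E11 there were 28, of which 8 had all such transcripts higher, 1 had all lower and 1, at THBS2, had both directions. Between D1 and E11 there were 17, with 7 all higher, 4 all lower and none in both directions, and between D1 and E16 there were 16, with 2 all higher, 4 all lower and none in both directions. The remaining loci held at least 1 transcript that differed by less than 2-fold. Since the reads of a locus are divided among its transcripts, these counts do not show that transcripts of a locus were measured apart.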

How the data were processed

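RNA of leg muscle was sequenced in 6 libraries, 2 per stage. The authors removed low-quality and ribosomal reads, aligned the rest to galGal4 with TopHat, assembled transcripts with Cufflinks, kept as lncRNAs those without coding potential, and compared stages with Cuffdiff, while the labels also name Trim Galore and Bowtie. Each of the 3 tables deposited by the authors covers 1 pair of stages, with 1 FPKM for a transcript at each stage over both libraries. The authors' own fold changes, p-values and q-values were not used. The paper lists total reads per library, but no read counts per transcript were given, so no test was made. Strand was not used, and overlapping transcripts share reads.

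Each stage's FPKM differed between tables by a constant factor (median ratio 0.830 for E11, 0.705 for E16 and 0.853 for D1), so the comparisons share libraries and are not independent, and the floor of 1 FPKM takes other members in each. Distance was the number of bases between loci, and positions are printed with the first base as 1. A pseudocount of 0.1, a floor of 1 FPKM at 1 of the 2 stages and a 2-fold limit were used, and entries marked as failed (10, 16 and 16 per table, no member) were left out. Ratios were printed only where both values were above 0.01. Intervals are exact 95% binomial intervals over transcripts. Named were members the paper names, the highest, those with the largest ratios or listed at 0 at 1 stage, the pairs with the largest changes, and those near genes of the 9 lists, beside others said to be chosen later. The distance rule used no expression value, but the rule and the lists were set with earlier results of these data known. Alternatives were the pseudocount, the floor, a 4-fold limit, centring, 1 transcript per locus, tested entries only, chromosomes only and the nearest expressed gene. Counting and distance steps were tested on simulated data. The software was Python 3.11.15 (scipy 1.17.1, pandas 2.3.3, numpy 2.4.6, matplotlib 3.10.9).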

Additional observations from a re-analysis of the deposited data

How the results depend on the processing

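No paired analysis was possible because the tables hold 1 pooled value per stage, although the labels number the libraries of each stage alike, and for the same reason no replicate could be left out. Of 156 alternative values of the 21 main results, 98 stayed within 1.5 times the count or within the interval and 58 did not. Of 615 alternatives for 205 values of single lncRNAs, 565 stayed and 50 moved, and no value past 2-fold changed sign. Under 2-fold, lnc00050831 had a log2 ratio of 0.04 in D1 vs. E16 and -0.01 after centring, and the median of D1 vs. E11 was -0.0058 and, on chromosomes only, 0.03. A pseudocount of 0.01, centring, tested entries only, chromosomes only and the nearest expressed gene moved no main result. Where 3 values follow each other they belong to E16 vs. E11, D1 vs. E11 and D1 vs. E16.

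With a pseudocount of 1, 56 rose and 25 fell between E16 and E11, and 32 and 18 fell in the other comparisons, with 30, 39 and 8 pairs in the same direction and opposite directions in 3 (E16 vs. E11) and 1 (D1 vs. E16). With a floor of 0.5, 140 (E16 vs. E11) and 114 (D1 vs. E11) rose, 125, 178 and 122 fell, 90, 122 and 35 pairs had the same direction and 12, 19 and 9 opposite ones, and the medians were 0.06 (E16 vs. E11), -0.62 (D1 vs. E11) and -0.55 (D1 vs. E16). Without a floor, 167, 139 and 72 rose, 148, 235 and 182 fell, 101, 158 and 65 pairs had the same direction and 20, 27 and 12 opposite ones, and the median of D1 vs. E16 was -0.45. At 4-fold, 54 (E16 vs. E11) and 19 (D1 vs. E16) rose, 35, 44 and 23 fell, 14, 21 and 6 pairs had the same direction and 2, 1 and 1 opposite ones. The share at an FPKM of 0.5 or more was 57.8% at E16 and 58.3% at E11, 37.2% at D1 and 50.5% at E11, and 32.6% at D1 and 46.3% at E16. With 1 transcript per locus the shares at 1 FPKM were 37.6% and 34.0%, 25.1% and 26.6%, and 21.8% and 26.1%. That transcript was the most abundant of its locus, so a higher share is built into the choice. Fewer or more transcripts enter by construction when the floor moves. FPKM values near 0 carry an error that the tables do not give.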

Other observations

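On chromosome 2 lnc00033506, 8.48 kb from LRRC3B, and lnc00033507, 14.1 kb from NEK10, lie in adjoining loci. Both were listed at 0 at E11 and at E16, and at D1, in the table with E11, they had an FPKM of 1.46 and 1.16. LRRC3B had 2.52 at D1 against 1.16 at E11, and NEK10, a kinase gene, had 0.264 against 0.477. On chromosome 3 lnc00057739, 10.7 kb from TPD52L1, lies beside lnc00057740, and both had their highest values at E16, with 2.30 and 13.3 at E16 against 0.550 and 4.70 at E11, and 0.172 and 3.08 at D1 against 1.62 and 9.38 at E16. On chromosome 16, lnc00028329, 5.83 kb from B-BTN2, a butyrophilin-like gene, had 7.43 at E16 against 3.65 at E11, with B-BTN2 at 1.07 against 0.278.

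lnc00053650, 11.1 kb from C3H6ORF203, had 1.93 at E16 against 14.5 at E11 and 2.72 at D1 against 12.0 at E11, while C3H6ORF203 had 95.8 at D1 against 36.9 at E11. lnc00088118 near the neuroligin gene NLGN1 had 0.714 at D1 against 3.41 at E11, with NLGN1 at 0.665 against 2.89. At KIAA1715, lnc00079062 had 2.48 at E16 against 0.230 at E11, with KIAA1715 at 14.0 against 6.13. Of the lncRNAs in these paragraphs, lnc00028329, lnc00053650, lnc00088118 and lnc00079062 were chosen after their values were seen.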
